A study of Homo sapiens with 8 samples.

Results

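The genes described are 45 interferon-stimulated genes, given as a list and looked up by symbol, of which 44 had a probe set of their own among the 19775 genes measured. Only STAT2, a subunit of the transcription complex ISGF3, had no probe set carrying its symbol alone, and it is named without a value. The list holds 6 regulators (IRF1, IRF7, IRF9, STAT2, USP18 and IFIH1), of which 5 were measured, and 39 effectors, all measured. Each gene is represented by the probe set that was brightest on average among those assigned to that symbol alone. Levels below are log2 of the deposited signal intensity, and differences are on the log2 scale with their standard error (SE). The arrays came from NCI-H1975, an established human lung adenocarcinoma line that carries activating and resistance mutations of EGFR. Cells were cultured for 24 h with osimertinib (10 nM, a mutant-selective EGFR inhibitor) and alpelisib (1 µM, an inhibitor of the PI3K catalytic subunit alpha) together, with osimertinib alone, with alpelisib alone, or with DMSO as vehicle. Each of these 4 treatments was given with L-histidinol (2 mM, a histidine analogue that blocks histidyl-tRNA synthetase and mimics histidine starvation) and without it. Every one of the 8 conditions was measured on 1 Affymetrix U133 Plus 2.0 array of total RNA, so no condition had a replicate, and all cultures were of this 1 line.

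Interferons bind cell-surface receptors that activate JAK kinases, which phosphorylate STAT proteins. STAT2 and IRF9 are subunits of the complex ISGF3, which binds the interferon-stimulated response element in promoters of antiviral effectors, while the interferon gamma pathway acts through gamma-activated sites. Many of these genes are also induced directly by IRF1, IRF3 or IRF7, and many retain a basal level in epithelial tumour cells without added interferon.

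Most of the genes with a promoter window share the core of the interferon-stimulated response element. The genes were listed as interferon-stimulated, so a high share of this element is not independent of that choice. RefSeq windows of GRCh38.p14, from 250 bases before to 50 bases after a start site, were matched by symbol for 37 of the 45 genes, in 49 windows, and the genes named without one are IRF7, USP18, IFIT2, IFITM2, MX2, OAS2, OASL and TRIM22. The core of the interferon-stimulated response element, searched on both strands as GAAA, any 2 bases and GAAA again, occurred in 30 of 49 windows (61.2%) and in 26 of 37 genes, against 3.57% of the 35116 windows in the table. The shorter GAAANNGAA, which lies inside the longer form, occurred in 65.3% of the members' windows and in 8.11% of all windows. The gamma-activated site, searched as TTCNNNGAA (the same on both strands, and able to share bases with the other motif), occurred in 12 windows (24.5%), against 7.66% of all windows. A few promoters are printed in full length because the results below turn on these genes, with the motif in capitals and the rest in lower case. IFI44L had the largest fitted difference with L-histidinol, ISG15 encodes the ubiquitin-like modifier of the response, IFITM1 had the largest fitted difference with alpelisib, EPSTI1 was among the genes that differed most with osimertinib, TRIM14 holds the motif yet was the 1 gene called lower with both drugs, and IRF9 holds the gamma-activated motif without the response element.
IFI44L (chr1:78620198-78620497, + strand): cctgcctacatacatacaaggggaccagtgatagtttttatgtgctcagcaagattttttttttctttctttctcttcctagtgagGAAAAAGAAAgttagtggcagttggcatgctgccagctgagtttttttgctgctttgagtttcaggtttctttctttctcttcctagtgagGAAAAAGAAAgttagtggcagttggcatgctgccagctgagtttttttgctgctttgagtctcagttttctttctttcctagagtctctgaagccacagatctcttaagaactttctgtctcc
ISG15 (chr1:1013247-1013546, + strand): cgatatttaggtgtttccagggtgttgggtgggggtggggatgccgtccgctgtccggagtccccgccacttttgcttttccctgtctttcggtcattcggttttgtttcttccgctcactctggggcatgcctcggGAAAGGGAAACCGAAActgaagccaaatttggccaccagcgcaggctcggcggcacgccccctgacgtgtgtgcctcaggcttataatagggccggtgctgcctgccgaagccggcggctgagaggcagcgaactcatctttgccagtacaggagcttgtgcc
IFITM1 (chr11:313790-314089, + strand): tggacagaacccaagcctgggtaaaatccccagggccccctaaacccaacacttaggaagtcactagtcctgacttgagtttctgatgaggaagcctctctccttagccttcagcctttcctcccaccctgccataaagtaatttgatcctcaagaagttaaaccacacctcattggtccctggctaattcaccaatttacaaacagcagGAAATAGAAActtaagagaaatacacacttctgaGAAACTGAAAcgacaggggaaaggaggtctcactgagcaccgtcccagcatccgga
EPSTI1 (chr13:42992192-42992491, - strand): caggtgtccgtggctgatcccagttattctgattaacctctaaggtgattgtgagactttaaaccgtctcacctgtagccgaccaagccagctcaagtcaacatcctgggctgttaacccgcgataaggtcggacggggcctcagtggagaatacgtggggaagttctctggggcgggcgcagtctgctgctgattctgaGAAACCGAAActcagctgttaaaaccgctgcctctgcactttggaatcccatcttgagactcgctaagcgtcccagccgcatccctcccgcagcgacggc
TRIM14 (chr9:98119173-98119472, - strand): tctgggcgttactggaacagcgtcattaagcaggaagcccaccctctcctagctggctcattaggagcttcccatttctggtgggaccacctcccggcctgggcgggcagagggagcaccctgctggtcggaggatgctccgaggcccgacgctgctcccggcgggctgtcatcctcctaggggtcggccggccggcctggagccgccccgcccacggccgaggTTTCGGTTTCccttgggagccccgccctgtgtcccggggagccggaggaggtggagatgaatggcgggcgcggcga
IRF9 (chr14:24161015-24161314, + strand): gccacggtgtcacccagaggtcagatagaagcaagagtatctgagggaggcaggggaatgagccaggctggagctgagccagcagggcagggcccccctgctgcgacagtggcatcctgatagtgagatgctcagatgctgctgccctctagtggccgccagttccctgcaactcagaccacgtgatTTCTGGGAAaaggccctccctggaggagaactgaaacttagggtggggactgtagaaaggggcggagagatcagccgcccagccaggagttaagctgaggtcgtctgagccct
Capitals mark that core in the first 5 windows and TTCNNNGAA in that of IRF9. The matches in IFI44L, ISG15, IFITM1 and EPSTI1 read on the strand printed, while that in TRIM14 lies on the opposite strand and so appears as its reverse complement. ISG15 holds 2 matches that overlap, and IFI44L holds 2 copies of the same match. Among neighbours on the same chromosome, the windows of PARP9 (chr3:122564251-122564550, - strand) and DTX3L (chr3:122564088-122564387, + strand) overlap each other and share the match. A match is a run of letters in a window and says nothing of binding.

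The 8 arrays had median intensities of 21.8 to 22.4 and correlated pairwise at r = 0.979 to 0.996 over all probe sets. Of the 44 genes, 43 had a mean log2 intensity of at least 5, the highest being IFITM3 at 12.07, while TRIM22 averaged 3.57, with only 21.8% of genes dimmer. The 7 lung epithelial markers measured were bright, each brighter than at least 81.4% of genes, with a summed intensity of 24364 to 33961 across arrays. The 11 immune, stromal and endothelial markers measured were dim, with mean log2 of 2.17 to 5.18 and a summed intensity of 165 to 169 on the 4 arrays with L-histidinol and 158 to 187 on the 4 without it. Of these 11, LYZ was called higher with L-histidinol, LUM with osimertinib, and LUM and MS4A1 with both drugs. Of all genes 11.4%, 16.4% and 21.4% were called higher in these comparisons, so the counts are near the shares. Of the 7 epithelial markers 5 were called higher with both drugs, 5 with osimertinib and 4 with alpelisib, against 21.4%, 16.4% and 7.08% of all genes. With L-histidinol 4 were called lower, against 9.17% of all genes. The part of either list in the results below was not tested. The ACTB 3' to 5' signal ratio was 1.10 to 1.15 with L-histidinol and 1.04 to 1.07 without it. This ratio moved with L-histidinol, and its part in the L-histidinol results below was not tested. With bulk RNA, a change in the number of cells that express a gene and a change in RNA per cell cannot be told apart.

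Interferon-stimulated genes were higher in cells given both drugs than in vehicle, nearly as widely higher with osimertinib alone, and higher with L-histidinol. With alpelisib alone the count depended on the fit and the threshold. With both drugs 39 of 44 were called higher and 1 lower, against 21.4% and 19.2% of all genes, with a median difference of 0.81 (log2), against -0.00 over all genes. That is the widest call of the list in any comparison with vehicle. With osimertinib 34 were called higher and 1 lower, against 16.4% and 14% of all genes, with a median of 0.57 against 0.01. With alpelisib 5 were called higher and 1 lower, against 7.08% and 4.38% of all genes, with a median of 0.12 against -0.00. At an unadjusted p below 0.05 limma gave 13 higher and 5 lower with alpelisib, against 13.4% and 11.2% of all genes. A fit with all 2-way terms and its own variance prior called 18 higher and 8 lower, against 13.5% and 11.9%. In earlier work on these data that prior gave many false calls in simulation, so its counts here and below are an alternative only. With L-histidinol 27 were called higher and 0 lower, against 11.4% and 9.17% of all genes, with a median of 0.25 against -0.01. At an unadjusted p below 0.05 limma gave 30 higher and 0 lower with L-histidinol, against 16.9% and 14.8% of all genes. Calls are at a Benjamini-Hochberg adjusted p below 0.05 over all genes in limma, from a fit that adds an L-histidinol effect to 4 drug treatments, so the error (SE) beside each difference rests on how far the 8 arrays depart from additive effects, and not on replicate cultures. Each of the 3 comparisons with vehicle uses the same 2 vehicle arrays. Counts of regulators and gene families below are to be read against the shares of all genes given here.

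**Figure D1:**
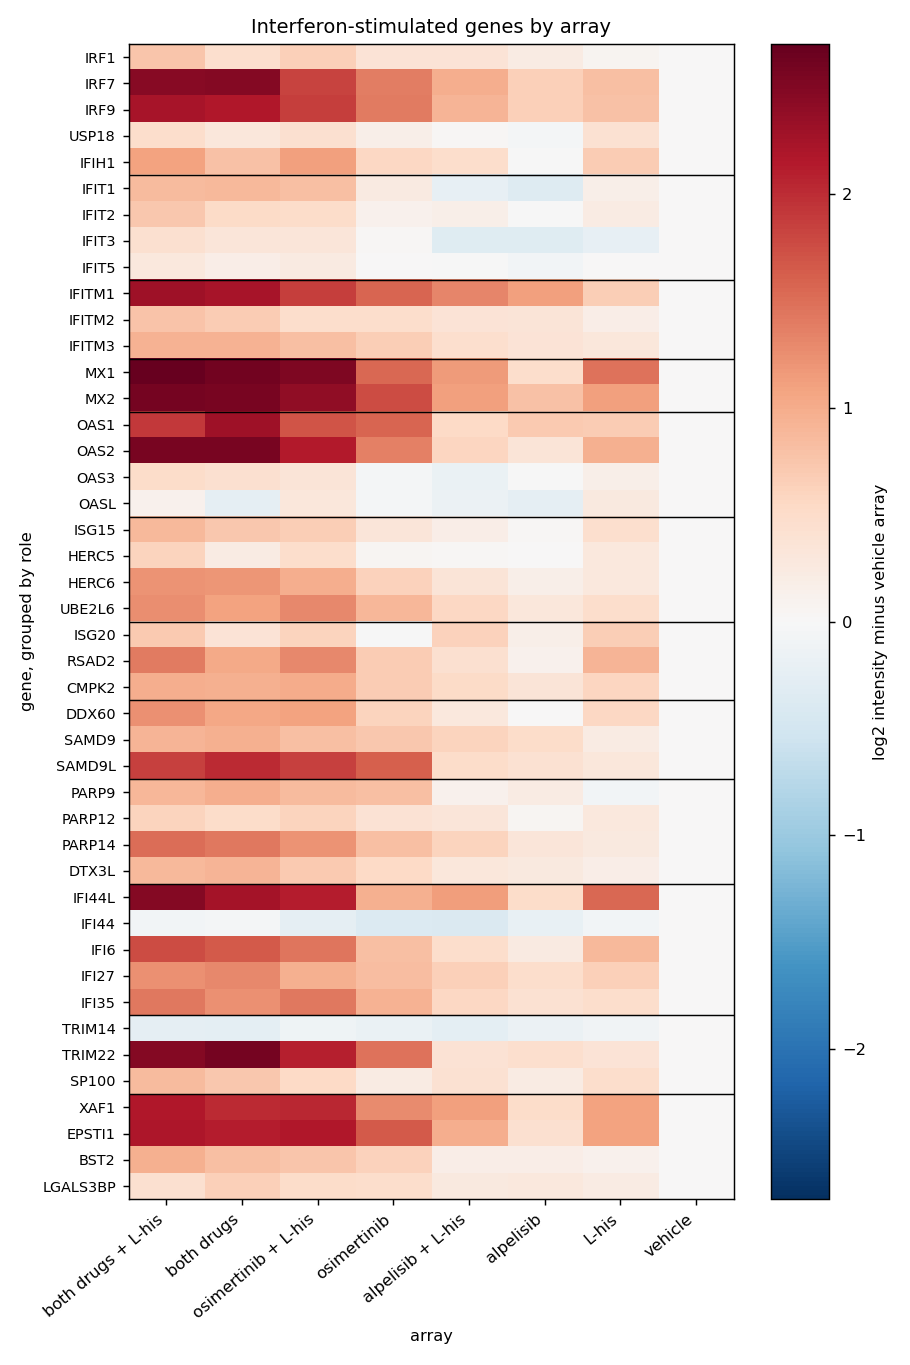
Log2 intensity of each of the 44 genes (vertical axis, grouped by role) on each of the 8 arrays (horizontal axis) minus that of the vehicle array, as colour from blue (lower) through white to red (higher). The vehicle array is the lowest for 32 of 44 genes, and the array of both drugs with L-histidinol is the highest for 26. The shares of all genes with these extremes were not counted.

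The array values show the same layout without a model. How often each array is the lowest or highest over all genes was not counted, so the counts of extremes describe the listed genes only. The vehicle array without L-histidinol was the lowest of the 8 for 32 of 44 genes. The highest array was both drugs with L-histidinol for 26 genes, both drugs without it for 11, osimertinib with L-histidinol for 5 and the vehicle array for 2 (IFI44 and TRIM14). Both combination arrays lay above both vehicle arrays for 38 genes, where 30.1% of all genes did so, 1 gene (TRIM14) lay below them, against 29.5% of all genes, and USP18, OASL, HERC5, ISG20 and IFI44 overlapped. Both osimertinib arrays lay above both vehicle arrays for 30 genes, against 27.1% of all genes, and below for IFI44 and TRIM14, against 23.4%. Both alpelisib arrays lay above for 12 and below for 7, against 20.6% and 20.2% of all genes.

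**Figure D2:**
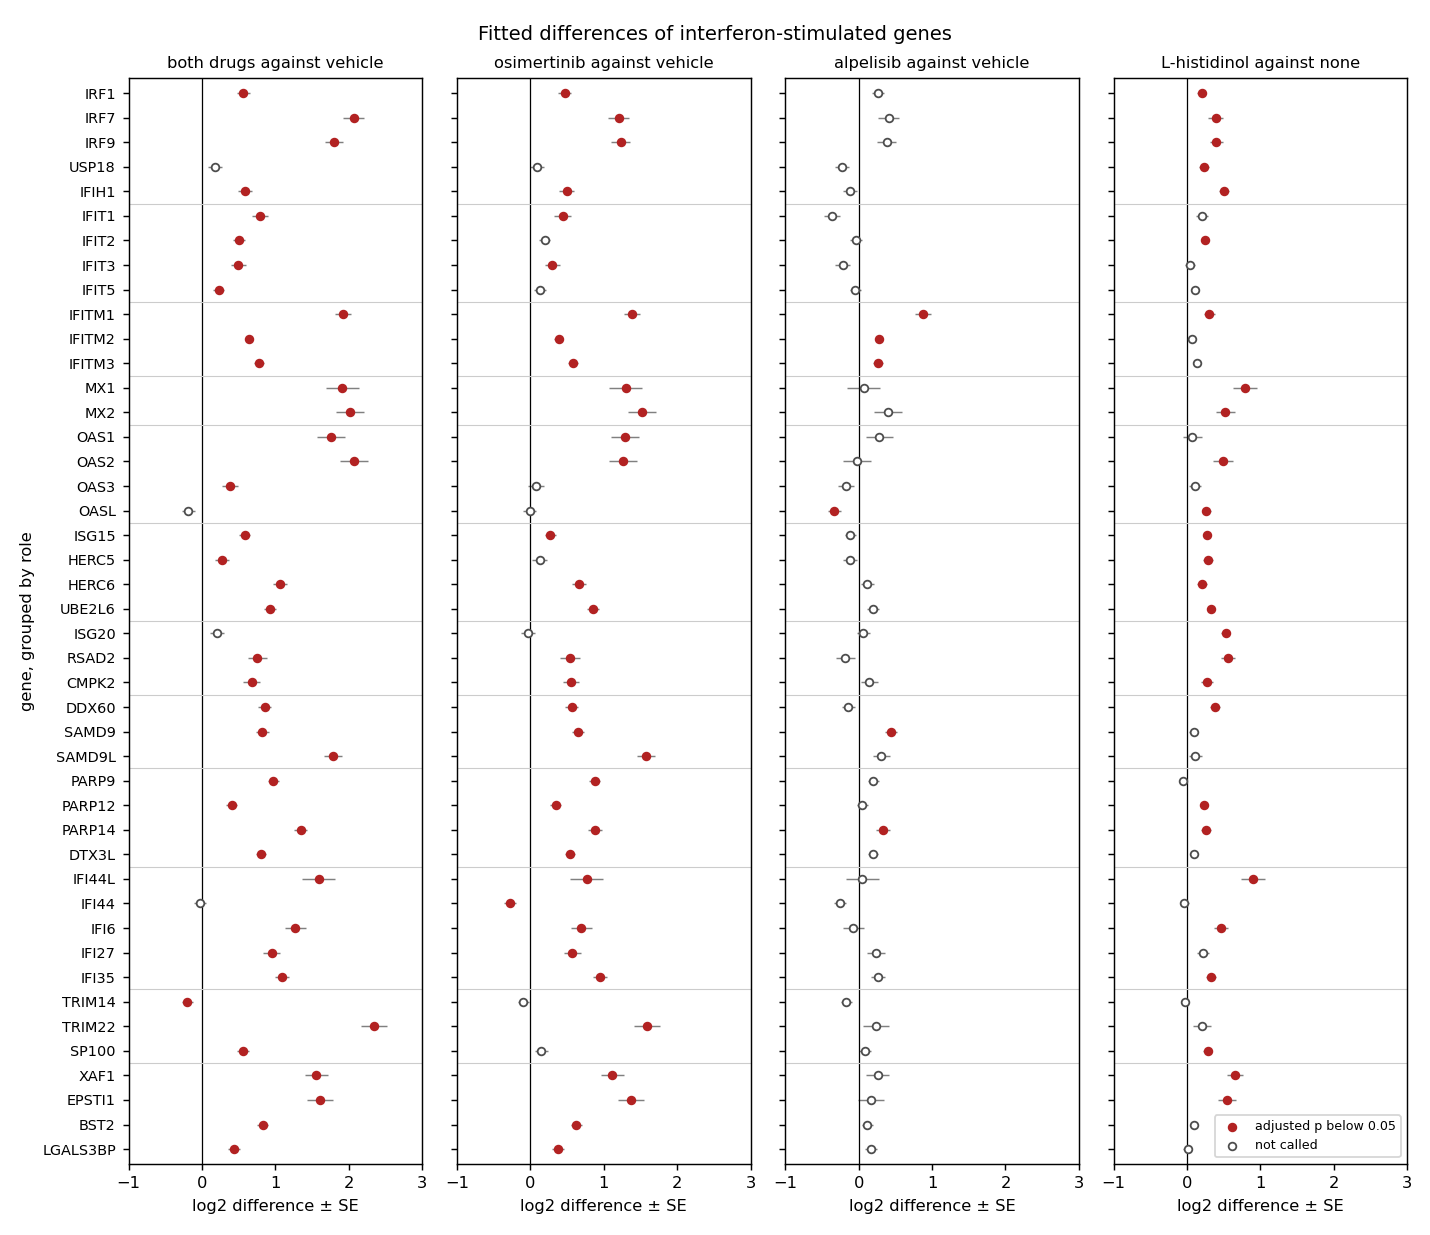
Fitted log2 difference (horizontal axis, point) with its SE (bar) for each of the 44 genes, grouped by role, in 4 comparisons; filled red points have an adjusted p below 0.05 and open points do not. The combination and osimertinib panels lie mostly right of 0 (39 and 34 genes called higher), the alpelisib panel straddles 0 (28 above and 16 below), and the L-histidinol panel lies mostly right of 0 with smaller differences (27 called higher).

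Of the regulators, IRF7 and IRF9 moved most with the drugs, and all 5 measured regulators rose with L-histidinol, of which IRF1 and IFIH1 lost the call with the mean of probe sets. IRF7, the factor that amplifies interferon gene transcription, had log2 intensities of 9.74 under both drugs, 9.11 under osimertinib, 8.27 under alpelisib and 8.09 in vehicle with L-histidinol, and 9.76 under both drugs, 8.67 under osimertinib, 7.92 under alpelisib and 7.28 in vehicle without it. Both combination arrays were the highest and close to each other, and vehicle without L-histidinol was the lowest. Its fitted difference was 2.07 ± 0.14 (SE; 4.19-fold) with both drugs, 1.21 ± 0.14 with osimertinib, 0.41 ± 0.14 with alpelisib (not called, limma adjusted p = 0.0892) and 0.39 ± 0.10 with L-histidinol. IRF9, the DNA-binding subunit of ISGF3, had log2 intensities of 9.97 under both drugs, 9.60 under osimertinib, 8.65 under alpelisib and 8.53 in vehicle with L-histidinol, and 9.89 under both drugs, 9.14 under osimertinib, 8.38 under alpelisib and 7.74 in vehicle without it. It followed the same order of treatments as IRF7. It rose by 1.80 ± 0.13 with both drugs, 1.23 ± 0.13 with osimertinib and 0.40 ± 0.09 with L-histidinol, and its difference with alpelisib was 0.38 ± 0.13 (not called).

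IRF1, a factor induced strongly by interferon gamma, had log2 intensities of 7.96 under both drugs, 7.86 under osimertinib, 7.60 under alpelisib and 7.29 in vehicle with L-histidinol, and 7.68 under both drugs, 7.59 under osimertinib, 7.44 under alpelisib and 7.22 in vehicle without it. The range over the arrays was narrow, with the combination arrays above all others in their L-histidinol state. IRF1 rose by 0.56 ± 0.09 with both drugs, 0.47 ± 0.09 with osimertinib and 0.20 ± 0.06 with L-histidinol. Its second probe set (mean log2 6.34) gave 0.77, 0.64 and 0.015 in these comparisons, and with the mean of probe sets the L-histidinol difference was 0.11 and the call was lost. IFIH1, the cytosolic double-stranded RNA sensor MDA5, had log2 intensities of 8.30 under both drugs, 8.32 under osimertinib, 7.68 under alpelisib and 7.90 in vehicle with L-histidinol, and 8.0 under both drugs, 7.78 under osimertinib, 7.20 under alpelisib and 7.21 in vehicle without it. With L-histidinol its osimertinib array was the highest, and the alpelisib and vehicle arrays without L-histidinol were the lowest. Its differences were 0.59 ± 0.10 with both drugs, 0.49 ± 0.10 with osimertinib and 0.50 ± 0.07 with L-histidinol, all called. Its 2 other probe sets, both dim (mean log2 4.03 and 2.90), gave -0.22 and -0.25 with L-histidinol and 0.06 and -0.19 with both drugs.

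USP18, the protease that removes ISG15 from proteins and restrains interferon receptor signalling, had log2 intensities of 7.56 under both drugs, 7.52 under osimertinib, 7.12 under alpelisib and 7.51 in vehicle with L-histidinol, and 7.40 under both drugs, 7.26 under osimertinib, 7.04 under alpelisib and 7.10 in vehicle without it. The treatments overlapped. No drug comparison with vehicle was called for USP18, the combination giving 0.18 ± 0.10 and alpelisib -0.22 ± 0.10, and it rose with L-histidinol by 0.23 ± 0.07. With alpelisib 0 of the 5 regulators were called by limma, near the 7.08% and 4.38% of all genes called higher and lower. At an unadjusted p below 0.05 there were 3 higher and 1 lower by limma, against 13.4% and 11.2% of all genes. The L-histidinol call of IFIH1 was kept whichever array was left out, that of IRF9 was lost without either osimertinib-only array, those of IRF7 and USP18 were kept only without a combination array, and that of IRF1 only without either vehicle array, given L-histidinol or not.

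**Figure D3:**
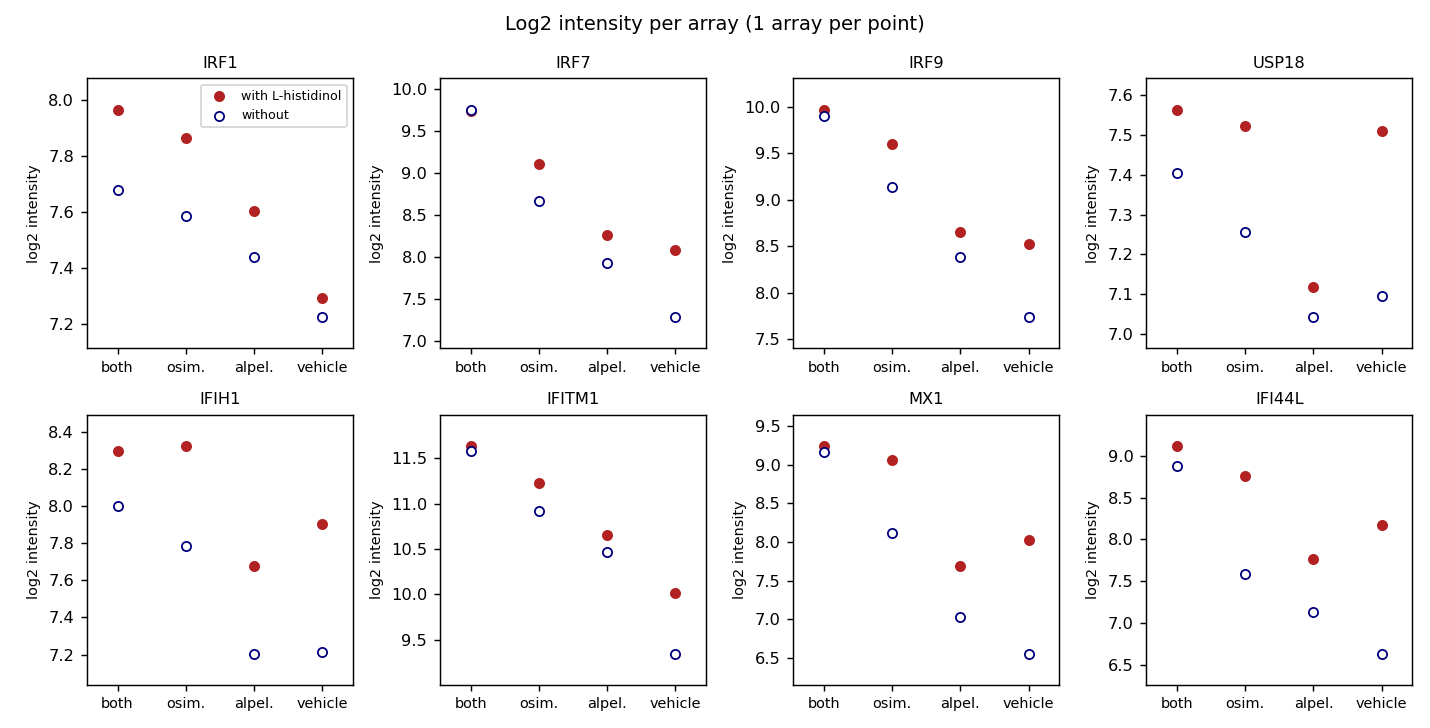
Log2 intensity (vertical axis, a separate scale in each panel) of 8 genes by drug treatment (horizontal axis: both drugs, osimertinib, alpelisib, vehicle); each point is 1 array, filled red with L-histidinol and open blue without it. IRF7, IRF9, IFITM1, MX1 and IFI44L show their 2 combination arrays close together at the top and their vehicle arrays far apart.

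The IFITM proteins, small membrane proteins that block fusion of entering viruses, all rose with both drugs, with osimertinib and with alpelisib. IFITM1 had log2 intensities of 11.63 under both drugs, 11.22 under osimertinib, 10.66 under alpelisib and 10.02 in vehicle with L-histidinol, and 11.58 under both drugs, 10.92 under osimertinib, 10.46 under alpelisib and 9.35 in vehicle without it. Every drug-treated array was above both vehicle arrays, in the order combination, osimertinib, alpelisib. IFITM1 rose by 1.92 ± 0.11 with both drugs, 1.39 ± 0.11 with osimertinib, 0.88 ± 0.11 (1.84-fold, limma adjusted p = 0.000889) with alpelisib and 0.31 ± 0.08 with L-histidinol. IFITM2 rose by 0.64 ± 0.06 with both drugs, 0.39 ± 0.06 with osimertinib and 0.28 ± 0.06 with alpelisib. IFITM3 rose by 0.78 ± 0.07, 0.58 ± 0.07 and 0.26 ± 0.07 in the same comparisons. L-histidinol gave 0.07 ± 0.04 for IFITM2 and 0.13 ± 0.05 for IFITM3, neither called. The 3 genes adjoin one another and are similar in sequence, and each rests on a single probe set of the kinds (_s_at or _x_at) that can hybridise to related transcripts, so the share of each in the signal is uncertain. The other genes called higher with alpelisib were SAMD9 and PARP14. Of these 5, IFITM1 alone stayed called whichever array was left out. The calls of IFITM2 and SAMD9 were lost without the vehicle array or either alpelisib-only array, that of IFITM3 also without either osimertinib-only array, and that of PARP14 in all but the fits that left out a combination array.

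The MX GTPases, dynamin-like proteins that trap viral components, rose with both drugs, with osimertinib and with L-histidinol. MX1 had log2 intensities of 9.24 under both drugs, 9.06 under osimertinib, 7.69 under alpelisib and 8.02 in vehicle with L-histidinol, and 9.16 under both drugs, 8.11 under osimertinib, 7.02 under alpelisib and 6.55 in vehicle without it. The combination arrays nearly coincided, whereas the 2 vehicle arrays were the farthest apart of any treatment. MX1 rose by 1.91 ± 0.23 (3.76-fold) with both drugs, 1.30 ± 0.23 with osimertinib and 0.79 ± 0.16 with L-histidinol, and its alpelisib difference was 0.07 ± 0.23. MX2 had log2 intensities of 8.32 under both drugs, 8.12 under osimertinib, 6.84 under alpelisib and 6.84 in vehicle with L-histidinol, and 8.29 under both drugs, 7.49 under osimertinib, 6.53 under alpelisib and 5.73 in vehicle without it. Both combination arrays were again the highest and plain vehicle the lowest. MX2 rose by 2.02 ± 0.19 with both drugs, 1.52 ± 0.19 with osimertinib and 0.52 ± 0.13 with L-histidinol.

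Of the OAS family, OAS1 to OAS3 make 2'-5' oligoadenylates that switch on RNase L, while OASL lacks that activity. OAS2 had log2 intensities of 7.75 under both drugs, 7.32 under osimertinib, 5.76 under alpelisib and 6.16 in vehicle with L-histidinol, and 7.75 under both drugs, 6.56 under osimertinib, 5.54 under alpelisib and 5.19 in vehicle without it. The combination arrays coincided at the top and plain vehicle was the lowest. OAS2 rose by 2.08 ± 0.19 (4.21-fold) with both drugs, 1.27 ± 0.19 with osimertinib and 0.49 ± 0.13 with L-histidinol, with -0.02 ± 0.19 for alpelisib. OAS1 rose by 1.75 ± 0.19 with both drugs and 1.28 ± 0.19 with osimertinib, and gave 0.07 ± 0.13 with L-histidinol (not called). OAS3 rose only with both drugs, by 0.38 ± 0.11, among the comparisons with vehicle and L-histidinol, and lost that call without the vehicle array or without the array of both drugs. OASL had log2 intensities of 8.01 under both drugs, 8.18 under osimertinib, 7.72 under alpelisib and 8.15 in vehicle with L-histidinol, and 7.65 under both drugs, 7.83 under osimertinib, 7.64 under alpelisib and 7.88 in vehicle without it. Its vehicle and osimertinib arrays overlapped and its alpelisib arrays were low. It fell by 0.33 with alpelisib (SE 0.09, limma adjusted p = 0.0345), the 1 lower call of that comparison, and rose by 0.26 ± 0.06 with L-histidinol, with -0.19 ± 0.09 for both drugs (not called). The lower call was kept only in the 2 fits that left out a combination array. Probe sets of OAS2 and OAS3 disagreed in size, with combination differences from 0.61 to 2.08 for OAS2 and from -0.12 to 0.38 for OAS3.

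The IFIT proteins, which bind viral RNA, all rose with both drugs, while 2 of 4 rose with osimertinib, 1 with L-histidinol and 0 with alpelisib. Of all genes 21.4%, 16.4%, 11.4% and 7.08% were called higher in these comparisons. With 4 genes, the L-histidinol and alpelisib counts cannot be told from these shares. IFIT1 had log2 intensities of 9.95 under both drugs, 9.89 under osimertinib, 8.86 under alpelisib and 9.25 in vehicle with L-histidinol, and 9.97 under both drugs, 9.32 under osimertinib, 8.75 under alpelisib and 9.09 in vehicle without it. Both alpelisib arrays were below both vehicle arrays, and both combination arrays were above them. IFIT1 rose by 0.79 ± 0.11 with both drugs and 0.44 ± 0.11 with osimertinib, and gave -0.36 ± 0.11 with alpelisib (limma adjusted p = 0.0613) and 0.21 ± 0.08 with L-histidinol, neither called. With both drugs IFIT2 rose by 0.51 ± 0.08, IFIT3 by 0.50 ± 0.10 and IFIT5 by 0.23 ± 0.08. IFIT3 also rose with osimertinib (0.30 ± 0.10), but its second probe set, which is bright (mean log2 8.45), gave -0.038, and with the mean of its probe sets the call was lost at 0.13. IFIT2 rose with L-histidinol (0.25 ± 0.05), and all 4 genes had fitted values above 0 with L-histidinol and with osimertinib. The osimertinib call of IFIT1 was lost without the L-histidinol array or without the array of osimertinib with L-histidinol, and that of IFIT3 was lost without these 2 or either alpelisib-only array. The combination call of IFIT5 was lost without the L-histidinol array, either alpelisib-only array or either combination array.

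ISG15, a ubiquitin-like protein attached to others, and the conjugating enzyme UBE2L6 both rose in 3 comparisons. UBE2L6 rose by 0.93 ± 0.08 with both drugs, 0.86 ± 0.08 with osimertinib and 0.32 ± 0.06 with L-histidinol. ISG15 rose by 0.58 ± 0.07, 0.27 ± 0.07 and 0.27 ± 0.05 in the same order, and was bright, at 11.22 on average over the 8 arrays. HERC5, the main ligase for ISG15 in human cells, rose by 0.27 ± 0.10 with both drugs and 0.28 ± 0.07 with L-histidinol, and gave 0.13 ± 0.10 with osimertinib. HERC6, its neighbour on the chromosome and the ISG15 ligase of mouse, rose by 1.06 ± 0.09 with both drugs, 0.67 ± 0.09 with osimertinib and 0.20 ± 0.07 with L-histidinol, but its second, dim probe set (mean log2 2.34) gave -0.24 with both drugs. The HERC5 call with both drugs was kept only without either alpelisib-only array. With alpelisib 0 of these 4 genes were called by limma, with values from -0.12 to 0.20. Of all genes 7.08% were called higher and 4.38% lower there, so 0 of 4 is near the background.

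The 3 enzymes that act on nucleic acids or nucleotides all rose with L-histidinol. ISG20, a 3' to 5' exonuclease, had log2 intensities of 7.95 under both drugs, 7.84 under osimertinib, 7.87 under alpelisib and 7.90 in vehicle with L-histidinol, and 7.60 under both drugs, 7.23 under osimertinib, 7.40 under alpelisib and 7.24 in vehicle without it. Each array with L-histidinol was above every array without it, and the drug treatments overlapped. ISG20 rose by 0.52 ± 0.07 with L-histidinol (limma adjusted p = 0.000357), and gave 0.20 ± 0.09 with both drugs and -0.04 ± 0.09 with osimertinib, neither called. RSAD2 (viperin), which makes a chain-terminating nucleotide, rose by 0.76 ± 0.13 with both drugs, 0.54 ± 0.13 with osimertinib and 0.56 ± 0.09 with L-histidinol. Its neighbour CMPK2, a mitochondrial nucleotide kinase, rose by 0.68 ± 0.11, 0.55 ± 0.11 and 0.27 ± 0.08 in those comparisons.

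SAMD9 and SAMD9L, adjacent genes for large proteins that restrict poxviruses, rose with osimertinib and gave little with L-histidinol. SAMD9L had log2 intensities of 7.16 under both drugs, 7.15 under osimertinib, 5.81 under alpelisib and 5.61 in vehicle with L-histidinol, and 7.32 under both drugs, 6.91 under osimertinib, 5.72 under alpelisib and 5.31 in vehicle without it. All arrays with osimertinib, alone or in combination, lay far above all arrays without it. SAMD9L rose by 1.78 ± 0.12 with both drugs and 1.58 ± 0.12 (2.98-fold) with osimertinib, and gave 0.11 ± 0.08 with L-histidinol. SAMD9 had log2 intensities of 8.43 under both drugs, 8.33 under osimertinib, 8.12 under alpelisib and 7.75 in vehicle with L-histidinol, and 8.48 under both drugs, 8.24 under osimertinib, 8.02 under alpelisib and 7.52 in vehicle without it. Every drug-treated array was above both vehicle arrays. SAMD9 rose by 0.82 ± 0.08 with both drugs, 0.65 ± 0.08 with osimertinib and 0.44 ± 0.08 with alpelisib. DDX60, a helicase-like antiviral protein, rose by 0.85 ± 0.09 with both drugs, 0.56 ± 0.09 with osimertinib and 0.38 ± 0.06 with L-histidinol.

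All 4 genes of ADP-ribosylation rose with osimertinib and with both drugs. PARP9, which acts as a complex with the ubiquitin ligase DTX3L, had log2 intensities of 8.96 under both drugs, 8.93 under osimertinib, 8.17 under alpelisib and 7.99 in vehicle with L-histidinol, and 9.03 under both drugs, 8.87 under osimertinib, 8.28 under alpelisib and 8.06 in vehicle without it. The 4 arrays with osimertinib were all above the 4 without it, and the L-histidinol state made little difference. PARP9 rose by 0.97 ± 0.07 with both drugs and 0.87 ± 0.07 with osimertinib, and its L-histidinol difference of -0.05 ± 0.05 was the lowest of the 44. The osimertinib value turned to -0.031 (not called) when probe sets of the _s_at and _x_at kinds were left out, which leaves a dimmer probe set (mean log2 5.83). That probe set gave 0.14 with both drugs, and the PARP9 calls with both drugs and for the combination against alpelisib were lost as well. DTX3L rose by 0.80 ± 0.07 with both drugs and 0.54 ± 0.07 with osimertinib. PARP14, a mono-ADP-ribosyltransferase, rose by 1.34 ± 0.09 with both drugs, 0.88 ± 0.09 with osimertinib, 0.33 ± 0.09 with alpelisib and 0.26 ± 0.07 with L-histidinol, while its second, dim probe set (mean log2 2.48) gave -0.11 with both drugs. PARP12, a related transferase, rose by 0.41 ± 0.07 with both drugs, 0.35 ± 0.07 with osimertinib and 0.22 ± 0.05 with L-histidinol.

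IFI44L and IFI44 are neighbours on chromosome 1 and encode related proteins. IFI44L had log2 intensities of 9.11 under both drugs, 8.76 under osimertinib, 7.77 under alpelisib and 8.18 in vehicle with L-histidinol, and 8.87 under both drugs, 7.59 under osimertinib, 7.14 under alpelisib and 6.63 in vehicle without it. With both drugs its arrays were close, and L-histidinol separated the pair in the other treatments. IFI44L rose by 0.90 ± 0.16 (1.86-fold, limma adjusted p = 0.00233) with L-histidinol, the largest of the list, and by 1.59 ± 0.22 with both drugs and 0.77 ± 0.22 with osimertinib. The osimertinib call was lost without the vehicle array or without the array of osimertinib with L-histidinol. IFI44 had log2 intensities of 8.93 under both drugs, 8.76 under osimertinib, 8.62 under alpelisib and 8.93 in vehicle with L-histidinol, and 8.95 under both drugs, 8.63 under osimertinib, 8.80 under alpelisib and 9.0 in vehicle without it. Its vehicle and combination arrays overlapped, and both lay above the arrays of either single drug. IFI44 fell by 0.27 with osimertinib (SE 0.08, limma adjusted p = 0.0234), but its second, dimmer probe set (mean log2 4.71) gave 0.11, so the direction depends on the probe set. That call was also lost without the vehicle array or without the osimertinib array. IFI6, a membrane protein that opposes apoptosis and viral replication, rose by 1.27 ± 0.14 with both drugs, 0.70 ± 0.14 with osimertinib and 0.46 ± 0.10 with L-histidinol. IFI35 rose by 1.09 ± 0.10, 0.95 ± 0.10 and 0.32 ± 0.07, and IFI27 by 0.95 ± 0.12 with both drugs and 0.57 ± 0.12 with osimertinib.

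TRIM22 and TRIM14, both of the tripartite motif family, moved in opposite directions with both drugs. TRIM22, an antiviral ubiquitin ligase, had log2 intensities of 4.82 under both drugs, 4.43 under osimertinib, 2.73 under alpelisib and 2.71 in vehicle with L-histidinol, and 4.93 under both drugs, 3.80 under osimertinib, 2.80 under alpelisib and 2.34 in vehicle without it. All arrays with osimertinib were above all arrays without it. TRIM22 rose by 2.35 ± 0.18 with both drugs and 1.59 ± 0.18 with osimertinib, the largest differences of the list in both comparisons, but it is the dimmest gene of the list and its folds are the least certain. TRIM14, an adaptor of the mitochondrial antiviral protein MAVS, had log2 intensities of 9.06 under both drugs, 9.18 under osimertinib, 9.02 under alpelisib and 9.20 in vehicle with L-histidinol, and 9.03 under both drugs, 9.12 under osimertinib, 9.13 under alpelisib and 9.29 in vehicle without it. All 8 arrays lay within 0.27 of one another, with vehicle the highest. TRIM14 fell by 0.20 with both drugs (SE 0.07, limma adjusted p = 0.0428), and the call was kept only in the fit without the L-histidinol array. SP100, a component of nuclear bodies, rose by 0.56 ± 0.09 with both drugs and 0.28 ± 0.06 with L-histidinol, and its 6 probe sets ranged from -0.25 to 0.62 with both drugs.

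XAF1, an antagonist of the apoptosis inhibitor XIAP, had log2 intensities of 9.70 under both drugs, 9.57 under osimertinib, 8.65 under alpelisib and 8.61 in vehicle with L-histidinol, and 9.56 under both drugs, 8.81 under osimertinib, 8.02 under alpelisib and 7.53 in vehicle without it. Plain vehicle was far below the other arrays, followed by alpelisib without L-histidinol. XAF1 rose by 1.56 ± 0.16 with both drugs, 1.12 ± 0.16 with osimertinib and 0.65 ± 0.11 with L-histidinol. EPSTI1 rose by 1.61 ± 0.17, 1.38 ± 0.17 and 0.55 ± 0.12 in the same comparisons, though its second, dim probe set (mean log2 2.91) gave 0.42, 0.16 and 0.01. BST2 (tetherin), which holds budding virions at the surface, rose by 0.83 ± 0.07 with both drugs and 0.63 ± 0.07 with osimertinib. LGALS3BP, a secreted galectin-binding glycoprotein, rose by 0.43 ± 0.08 and 0.38 ± 0.08. L-histidinol gave 0.09 for BST2 and 0.01 for LGALS3BP, neither called.

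Regulators and effectors were set side by side as shares of each class. With both drugs 4 of 5 regulators and 35 of 39 effectors were called higher (21.4% of all genes), with medians of 0.59 and 0.82. With osimertinib 4 of 5 and 30 of 39 were called higher (16.4%), with medians of 0.49 and 0.57. With alpelisib the counts were 0 of 5 and 5 of 39 (7.08%, a share that leaves 0 of 5 near the background), with medians of 0.26 and 0.12. With L-histidinol all 5 regulators and 22 of 39 effectors were called higher (11.4%), with medians of 0.39 and 0.25. The difference between the 2 classes was not tested, and with 5 regulators each median rests on 1 gene.

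The combination was set against each single drug to see what the second drug added. Against osimertinib alone 14 of 44 genes were called higher and 0 lower, where 5.96% of all genes were called higher and 7.41% lower, with a median difference of 0.25 against -0.01 over all genes. At an unadjusted p below 0.05 there were 26 higher and 0 lower by limma, against 12% and 14% of all genes. A fit with all 2-way terms and its own variance prior called 30 higher and 1 lower, against 12.1% and 14.2%. IRF7 led with 0.86 ± 0.14, followed by IFI44L with 0.82 ± 0.22, OAS2 with 0.81 ± 0.19 and TRIM22 with 0.76 ± 0.18. IRF9 (0.56 ± 0.13), IFI6 (0.57 ± 0.14) and IFITM1 (0.53 ± 0.11) were also called. The count rests on single arrays: it was 1 without the osimertinib array or without the array of both drugs, 4 without the array of osimertinib with L-histidinol, 21 without the vehicle or the L-histidinol array and 22 without the array of both drugs with L-histidinol. The share of all genes called higher moved as well, being 1.70% without the osimertinib array, 2.42% without the array of both drugs, 1.17% without the array of osimertinib with L-histidinol, 7.49% without the vehicle or the L-histidinol array and 5.01% without the array of both drugs with L-histidinol. IRF7 was the 1 gene called in every such fit.

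Against alpelisib alone 40 of 44 genes were called higher and 0 lower, where 14.6% of all genes were called higher and 14.4% lower, with a median of 0.71 against 0.01. TRIM22 (2.11 ± 0.18), OAS2 (2.10 ± 0.19) and MX1 (1.84 ± 0.23) had the largest differences. The alpelisib arrays of TRIM22, at log2 2.73 with L-histidinol and 2.80 without it, lie among the dimmest signals, so the size of its difference and its rank are uncertain. The 4 genes not called were IFI44, OASL, ISG20 and TRIM14, with values from -0.03 to 0.23. At an unadjusted p below 0.05 limma gave 41 higher and 0 lower, against 18.9% and 18.1% of all genes, and the fit with all 2-way terms also called 0 lower (18.8% of all genes). With 1 array left out 33 to 41 genes were called higher, and the calls of CMPK2, HERC5, IFIT5, IRF1, LGALS3BP, OAS3, PARP12, SAMD9 and USP18 were lost in at least 1 such fit.

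How far the combination lay from the 2 single-drug differences added together was tested next, and this departure was called for 0 of 44 genes by limma, where 0% of all genes were called higher and 0.0303% lower. At an unadjusted p below 0.05 there were 13 higher and 1 lower, against 2.77% and 6.07% of all genes, and the fit with all 2-way terms and its own prior called 14 higher and 1 lower, against 1.42% and 4.72%. The median departure was 0.18, against -0.02 over all genes, with 33 of the 44 genes above 0. IFIT1 had the lowest adjusted p, with a departure of 0.71 ± 0.16 (limma adjusted p = 0.198), then IFI44 with 0.50 ± 0.11 and ISG15 with 0.43 ± 0.11. IFITM1 gave -0.34 ± 0.16, its single-drug differences adding to more than that of the combination.

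The L-histidinol response was read separately in each drug background, as the difference between 2 single arrays and so with no error of its own. The median over the 44 genes was 0.08 with both drugs, 0.35 with osimertinib, 0.17 with alpelisib and 0.39 in vehicle, while the median over all genes was 0.01, -0.00, -0.01 and -0.00 in these backgrounds. A difference of at least 0.5 was reached by 0 genes with both drugs, 12 with osimertinib, 4 with alpelisib and 17 in vehicle, where 1.95%, 2.98%, 2.03% and 3.43% of all genes reached it. Values above 0 were found for 32 genes with both drugs, 43 with osimertinib, 35 with alpelisib and 40 in vehicle, against 51.3%, 49.6%, 48.3% and 49.5% of all genes. The background with both drugs therefore gave the smallest response by each of these counts.

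**Figure D4:**
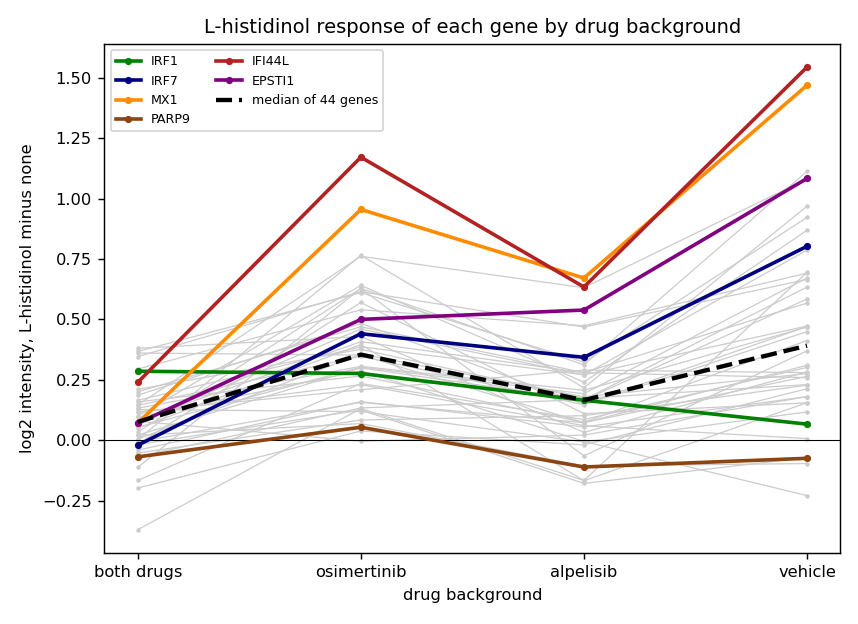
Log2 intensity with L-histidinol minus without it (vertical axis) in each drug background (horizontal axis), 1 line per gene; 6 genes are coloured and the dashed line is the median of the 44. The median is 0.08 with both drugs, 0.35 with osimertinib, 0.17 with alpelisib and 0.39 in vehicle. IRF1 is among the genes with a higher value under both drugs than in vehicle.

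Single genes showed the same order, with exceptions. IFI44L differed by 0.24 with both drugs, 1.17 with osimertinib, 0.63 with alpelisib and 1.54 in vehicle. For MX1 the response was 0.07 with both drugs, 0.95 with osimertinib, 0.67 with alpelisib and 1.47 in vehicle. Both genes responded least where both drugs were present. XAF1 gave 0.15 with both drugs, 0.76 with osimertinib, 0.63 with alpelisib and 1.08 in vehicle. The values for IRF7 were -0.02 with both drugs, 0.44 with osimertinib, 0.34 with alpelisib and 0.80 in vehicle, and those for IRF9 were 0.07 with both drugs, 0.46 with osimertinib, 0.27 with alpelisib and 0.79 in vehicle. In the combination, where these factors were at their highest, L-histidinol made almost no difference to them. IRF1 ran the other way, with 0.29 with both drugs, 0.28 with osimertinib, 0.17 with alpelisib and 0.07 in vehicle. It was not alone in a value with both drugs above that in vehicle. OASL (0.36 against 0.26), HERC5 (0.38 against 0.28), IFIT3 (0.10 against -0.23) and IFIT5 (0.12 against 0.01) had this too. The same held for TRIM14, BST2, IFI44 and PARP9. ISG20 kept a response in every background, with 0.35 with both drugs, 0.61 with osimertinib, 0.47 with alpelisib and 0.67 in vehicle. OAS1 changed sign, with -0.37 with both drugs, 0.13 with osimertinib, -0.17 with alpelisib and 0.69 in vehicle.

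Tested as interactions, none of these differences between backgrounds was called. The change of the L-histidinol response by alpelisib had a median of -0.23 over the 44 genes against 0.01 over all genes, with 42 of 44 below 0. By limma 0 genes were called, where 0% of all genes were, and at an unadjusted p below 0.05 there were 22 lower and 0 higher, against 2.46% and 2.59% of all genes. IFI44L had the lowest adjusted p, with -0.92 ± 0.11 (limma adjusted p = 0.0908), and MX1 followed with -0.84 ± 0.11 (limma adjusted p = 0.11). The change by osimertinib had a median of -0.09 against 0.01, with 30 of 44 below 0, and again 0 genes were called by limma (0% of all genes), with 10 lower and 1 higher at an unadjusted p below 0.05, against 3.57% and 4.79%. MX1 had the lowest adjusted p there, with -0.56 ± 0.11 (limma adjusted p = 0.187). With the variance prior estimated by the interaction fit itself, which has 1 residual degree of freedom, 18 genes were called lower for alpelisib (0.622% of all genes). For osimertinib there were 10 lower and 1 higher (1.62% and 2.91%). Because that prior gave many false calls in simulation in earlier work on these data, these counts are an alternative and not relied on.

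The same arrays read the other way give the drug effects with and without L-histidinol. The combination minus vehicle had a median of 0.68 with L-histidinol and 0.96 without it. Osimertinib minus vehicle had a median of 0.56 with L-histidinol and 0.64 without it. Alpelisib minus vehicle had a median of -0.03 with L-histidinol, with 20 of 44 genes above 0, and 0.25 without it, with 34 of 44 above 0, against 49.2% and 50.5% of all genes. MX1 changed sign between them, with alpelisib minus vehicle at -0.33 with L-histidinol and 0.47 without it, as did RSAD2 at -0.48 and 0.12. IFITM1 kept its direction, at 0.64 with L-histidinol and 1.12 without it. All of these rest on the same vehicle arrays as the L-histidinol response in vehicle and are not independent of it.

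The number of calls moved with the arrays used, for these genes and for all genes. Of the 27 genes called higher with L-histidinol, 10 remained in every fit that left out 1 array (IFI44L, MX1, XAF1, RSAD2, EPSTI1, ISG20, IFIH1, DDX60, UBE2L6 and ISG15). The L-histidinol calls of IRF9, MX2, IFI6, IFI35, IFITM1, IFIT2, HERC5, OASL and SP100 were lost only without an osimertinib-only array. OAS2 also lost its call without either vehicle array, PARP12 and PARP14 also without an alpelisib-only array, CMPK2 and HERC6 without any array but those of both drugs. The L-histidinol count was 10 without the osimertinib array or without the array of osimertinib with L-histidinol. It was 20 without either alpelisib array, 22 without either vehicle array and 29 without either combination array. The share of all genes called higher with L-histidinol was 6.20% and 6.17% without either osimertinib-only array, 6.80% and 6.73% without either alpelisib-only array, 11% without either vehicle array and 10.7% without either combination array. The alpelisib count of 5 fell to 1 without the vehicle array or either alpelisib array and to 3 without either osimertinib array, and it was 13 without the L-histidinol array. All genes had alpelisib shares of 4.82% without the vehicle array, 2.38% and 0.855% without the alpelisib array and its L-histidinol partner, 5.45% and 5.44% without the osimertinib array and its partner, and 6.36% without the L-histidinol array. The combination count of 39 was between 36 and 38, and 36 of its 40 calls remained in every such fit. The osimertinib count of 34 was between 27 and 34, with 26 of 35 calls remaining throughout. Besides those named with their genes above, IFI6 lost its osimertinib call without the array of osimertinib with L-histidinol, PARP12 without the plain osimertinib array, LGALS3BP without the vehicle array or the array of osimertinib with L-histidinol, and ISG15 and RSAD2 without any of these 3 arrays. Taking the mean of probe sets in place of the brightest, the L-histidinol calls of IRF1, IFIH1, IFIT2, OAS2, HERC6, CMPK2, PARP14, SP100 and EPSTI1 were lost, as were the osimertinib calls of IFIH1, IFIT3, HERC6, IFI44L and IFI44 and the combination calls of IFIH1, OAS3, HERC5 and TRIM14. Of these, CMPK2, IFI44L and HERC5 have 1 probe set each, so their differences did not change. Their calls moved with the variance prior and the adjustment, which draw on all genes.

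Among the measured genes with a window, those with an exact match to the core of the response element had the lower medians. Genes without a window are in neither set, and with both drugs they ran from -0.19 (OASL) to 2.35 (TRIM22). The 26 genes with the core had medians of 0.78 with both drugs, 0.54 with osimertinib, 0.05 with alpelisib and 0.22 with L-histidinol. The 10 measured genes whose windows lack an exact match had medians of 1.08, 0.91, 0.26 and 0.27 in these comparisons. The 2 sets were not compared by a test.

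Upstream of these genes the interferons themselves were near the floor of the array. The counts of pathway lists that follow are to be read against shares of all genes called higher and lower of 21.4% and 19.2% with both drugs, 16.4% and 14% with osimertinib, 7.08% and 4.38% with alpelisib, and 11.4% and 9.17% with L-histidinol. The 8 ligand genes measured (type I, II and III) had mean log2 intensities between 1.73 and 3.88, none as high as 5. With both drugs 0 were called higher and 1 lower (IFNB1 -0.38 ± 0.13), with osimertinib 1 each way (IFNL1 0.51 ± 0.15, IFNB1 -0.41 ± 0.13), with alpelisib 0 and with L-histidinol 0. Their summed intensity was 46.8 to 57.4 over the 8 arrays, so these are differences between dim signals. Of 9 receptor chains and JAK kinases, 4 were called higher and 0 lower with both drugs, 3 and 1 with osimertinib, 2 and 0 with alpelisib, and 1 and 1 with L-histidinol, a count near those shares for L-histidinol. Those with both drugs were led by the interferon lambda receptor chain IFNLR1 at 1.05 ± 0.10 and the kinase JAK1 at 0.69 ± 0.06. IFNLR1 also rose with alpelisib, by 0.57 ± 0.10, and JAK1 with osimertinib, by 0.67 ± 0.06. IFNAR1, a chain of the type I receptor, rose with L-histidinol by 0.47 ± 0.08, and IFNGR2, of the interferon gamma receptor, fell with osimertinib by 0.41 (SE 0.08).

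Among 12 genes that sense nucleic acids or relay that signal, 8 were called higher and 1 lower with both drugs, 7 higher and 1 lower with osimertinib, and 2 higher and 0 lower with alpelisib. DHX58, a relative of IFIH1, rose by 0.87 ± 0.09 with both drugs and 0.42 ± 0.09 with osimertinib. The RNA sensor RIGI rose by 0.64 ± 0.09 and 0.29 ± 0.09, and its ubiquitin ligase TRIM25 by 0.67 ± 0.08 and 0.29 ± 0.08. The DNA sensor CGAS ran the other way, with -1.21 ± 0.12 and -0.81 ± 0.12, both called lower. With L-histidinol 2 of the 12 were called higher (TRIM25 0.31 ± 0.05 and the kinase EIF2AK2 0.29 ± 0.07) and 1 lower (STING1 -0.30 ± 0.06). Of 5 further STAT and IRF factors, 2 were called higher and 1 lower with both drugs, 2 and 0 with osimertinib, 1 and 0 with alpelisib, and 1 and 0 with L-histidinol. IRF2 rose by 0.55 ± 0.10 with both drugs and 0.38 ± 0.07 with L-histidinol, IRF5 rose by 0.45 ± 0.08 with both drugs, and IRF3 gave -0.40 ± 0.07 with both drugs, called lower. Of 6 negative regulators, 2 were called higher with both drugs, 1 with osimertinib, 0 with alpelisib and 1 with L-histidinol, counts near the shares of all genes. The phosphatase PTPN6 (0.62 ± 0.09) and SOCS3 (0.33 ± 0.10) rose with both drugs, and PTPN2 rose with L-histidinol (0.35 ± 0.07). Of 5 guanylate-binding protein genes, another interferon-induced family, 3 were called higher with each drug treatment and 1 lower with L-histidinol. With both drugs 2 of them differed by more than any of the 44 genes: GBP2 gave 3.81 ± 0.12 with both drugs and GBP1 2.72 ± 0.17, while GBP2 gave -0.37 ± 0.09 with L-histidinol, called lower.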

How the data were processed

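The 45 genes, the role groups and the other gene lists were chosen with earlier results of these data known, so their counts are descriptions and no set was tested. Values were deposited as linear signal intensity per probe set, made by the authors with RMA and affy per the submitters' processing notes, which name no version; biotinylated cRNA came from 100 ng of total RNA, per the labels' protocols. RMA fits probes jointly over arrays, so arrays share a scale and small differences at low signal are compressed. The design foresaw log2 values and the table is linear, so log2 was taken first, with no further scaling, offset or filter on dim probe sets.

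Of 54675 probe sets, 62 were controls, 41091 carried 1 symbol, 1801 several and 11721 none; the last 2 kinds were left out. Entrez identifiers of 41037 matched the RefSeq table (GRCh38.p14) and 0 symbols were updated. The brightest probe set on average stood for each of 19775 genes, 15 members resting on _s_at or _x_at probe sets. Precision is limited by there being 8 arrays.

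The model, run in limma 3.58.1 (R 4.3.3), held L-histidinol plus a drug treatment of 4 levels, with variance trend (3 residual and 8.08 prior degrees of freedom), and Benjamini-Hochberg adjustment over all genes. Interactions with L-histidinol came from all 2-way terms (1 residual degree of freedom) with the prior of the additive fit. P-values test each difference against an error drawn from departures from additivity over these arrays and from the variance prior. No replicate cultures enter that error. Array values are printed for members with the 3 largest and 3 smallest differences with L-histidinol and in each comparison with vehicle, and for the regulators. Genes outside the list were eligible where called against vehicle or with L-histidinol, up to 4 per list and comparison, and which of these are printed was decided with their values known. The scripts were tested on simulated data. Alternatives were the mean of probe sets, no _s_at or _x_at probe sets, median centring, quantile normalization, an offset of 16, a minimum mean log2 of 5, no variance trend, all 2-way terms with their own prior, leaving out each array, and a shorter motif. Python 3.11.15, numpy 2.4.6, pandas 2.3.3 and matplotlib 3.10.9 were used.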

Additional observations from a re-analysis of the deposited data

How the results depend on the processing

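No paired analysis was possible because each condition has 1 array and no replicate number, and the additive fit already sets each L-histidinol array against its partner. Counts of genes called higher stayed within 1.5 times for the combination against vehicle, osimertinib against vehicle and the combination against alpelisib under every alternative run. Leaving out each array in turn gave 10 to 29 higher with L-histidinol, 27 to 34 higher and 0 to 1 lower with osimertinib, 1 to 13 higher and 0 to 3 lower with alpelisib, 36 to 38 higher and 0 to 1 lower with both drugs, 1 to 22 higher for the combination against osimertinib, 33 to 41 higher against alpelisib, and 0 to 1 higher for the departure from additivity, the 1 without the array of both drugs with L-histidinol. Without a variance trend, 17 genes were called higher with L-histidinol, 2 with alpelisib and 2 for the combination against osimertinib, with 0 lower for osimertinib, alpelisib and the combination. Of all genes 7.83%, 3.16% and 2.53% were called higher there, and 11.4%, 0.779% and 18.1% lower, in the orders given. The alpelisib count and that against osimertinib are near their shares. With the mean of probe sets, 3 were higher with alpelisib and 6 for the combination against osimertinib, with 0 lower for each treatment against vehicle. Of all genes 4.02% and 3.74% were called higher in these comparisons. The shares called lower were 12.3% with osimertinib, 2.16% with alpelisib and 18% with both drugs. Without _s_at and _x_at probe sets, which leaves 34 genes, 2 were higher with alpelisib and 8 for the combination against osimertinib, with 0 lower for osimertinib and the combination, and osimertinib gave -0.031 for PARP9 and 0.11 for IFI44, both reversed. Of all genes 5.87% and 5.24% were called higher there, with 11.6% lower for osimertinib and 16.2% for the combination. The alpelisib count is near its share. Quantile normalization gave 0 lower with both drugs, against 19.2% of all genes. With all 2-way terms and their own prior, alpelisib had 18 higher and 8 lower, both drugs 2 lower, the combination against osimertinib 30 higher and 1 lower, and the departure from additivity 14 higher and 1 lower. In that order all genes had 13.5% and 11.9%, 22.4%, 12.1% and 14.2%, and 1.42% and 4.72%. With that prior the L-histidinol response changed by osimertinib had 1 higher and 10 lower (2.91% and 1.62% of all genes), and that changed by alpelisib 18 lower (0.622%). The median combination effect without L-histidinol was 0.86 with the mean of probe sets, against 0.96. The regulators' median minus the effectors' was -0.11 with both drugs and 0.022 with L-histidinol under the mean of probe sets (-0.23 and 0.14 as reported), and reversed to -0.022 with alpelisib without _s_at and _x_at probe sets (0.14 as reported). The causes were not tested. TRIM22, the 1 gene with a mean log2 under 5, is limited most by signal over background.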
